A study of Mus musculus with 4 samples.

Results

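Genes for fatty acid handling in endothelium were examined in endothelial cells (ECs) of the dura mater and of the brain parenchyma. They were picked by symbol, for a role in binding fatty acids inside the cell, taking them up at its membrane or releasing them from lipoproteins, or as regulators of that uptake. They numbered 10 of the 23282 gene entries counted: Fabp4, Fabp5, Cd36, Gpihbp1, Lpl, Lipg, Angptl4, Pparg, Meox2 and Tcf15. All of them had 1 entry in each count table. Both tissues came from C57BL/6J mice of 8 weeks with no treatment named, and each tissue had 2 libraries, called brain 1, brain 2, dura 1 and dura 2 here. Tissue was dissociated with enzymes and red cells were lysed, and CD31+ CD45- TER-119- cells were sorted. Brain cells were first enriched with anti-CD31 magnetic beads, a step not described for the dura mater, so that this step and the tissue cannot be told apart. Neither the labels nor the methods say whether the libraries of a tissue came from separate mice, so p-values measure only the spread between these libraries.

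Fatty acids reach most tissues bound to albumin or packed in triglyceride-rich lipoproteins. On capillary endothelium the lipase LPL, held there by GPIHBP1 and inhibited by ANGPTL4, frees fatty acids from these particles. CD36 takes part in their uptake and FABP4 and FABP5 bind them in the cytoplasm, while the nuclear receptor PPARγ and the transcription factor pair MEOX2 and TCF15 are regulators of such genes. Endothelium of heart, muscle and fat is known for this set, whereas brain endothelium takes up certain lipids through the carrier MFSD2A.

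Brain libraries held 14468642 and 13812738 counts, and dura mater libraries 13518973 and 16096203. A single count was worth 0.0613 to 0.0756 CPM (counts scaled to library size, the unit used below), after scaling by the trimmed mean of M-values (TMM). The 10 pan-endothelial markers checked (among them Pecam1, Cdh5 and Tie1) were counted in every library, with a summed level of 10112 and 12279 CPM in brain and 7667 and 9826 CPM in dura mater. Replicates were far apart for many genes, with a common biological coefficient of variation of 1.39 in edgeR. Many genes were counted in 1 library of a tissue and nearly missing from the other. Of the 9347 genes tested, 1577 had at most 7 counts in dura 1 and at least 64 in dura 2, and 101 had the reverse pattern. In brain these numbers were 1165 and 1131.

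Dura mater ECs had more Fabp4, Cd36, Gpihbp1, Lpl, Pparg and Tcf15 than brain ECs in both libraries, and less Angptl4. The levels of Fabp5 overlapped between tissues. Lipg had no count in any library, and Meox2 was counted almost only in dura 2. Of the 10 genes, 8 had enough counts to test, and 1 of them, Fabp4, was higher in dura mater at an adjusted p under 0.05 in edgeR's quasi-likelihood test. Over all genes tested, 0.610% passed this test in either direction, and 0.428% were higher in dura mater. Both dura mater libraries lay above both brain libraries for 6 of the 8 genes, against 26.2% of all genes, and below them for 1, against 16.9%. At an unadjusted p under 0.05, 5 of the 8 were higher and 1 was lower, against 7.04% and 2.97% of all genes tested. The median log2 fold change (dura mater over brain) of the 8 genes was 6.76, also with Gpihbp1 at its lower bound, and that of all genes tested was -0.01. Fabp4, Cd36, Gpihbp1, Lpl and Pparg were kept for testing through their dura mater counts, so that a difference was built into their inclusion.

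**Figure D1:**
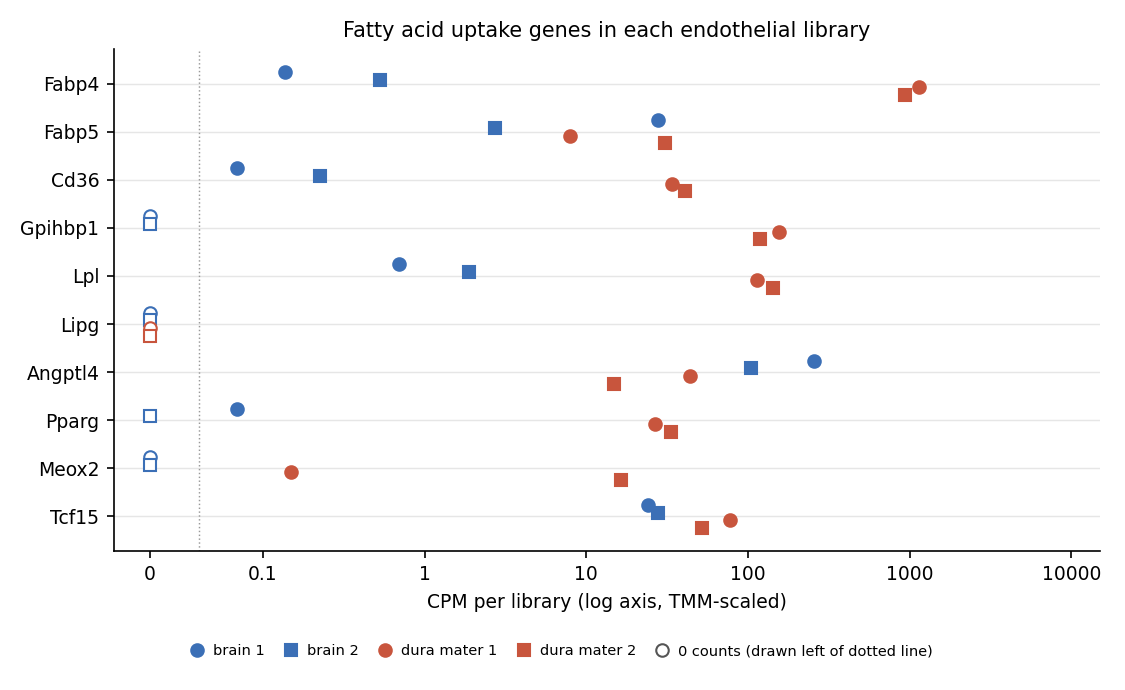
Level of each of the 10 genes in each library, in TMM-scaled CPM on a log axis, with brain in blue, dura mater in red, replicate 1 as circles and replicate 2 as squares; open symbols left of the dotted line are libraries with 0 counts. Fabp4, Cd36, Gpihbp1, Lpl and Pparg have both dura mater libraries close together and far above the brain libraries, while the libraries of Fabp5 interleave and Meox2 stands out in dura 2 alone.

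The fatty acid binding proteins were first compared. Fabp4 (chr3:10204088-10208576, minus strand, GRCm38) encodes the carrier known from fat cells, macrophages and capillary endothelium. Counts were 2 and 7 in brain 1 and brain 2, and 15241 and 15214 in dura 1 and dura 2. In CPM these were 0.138 and 0.529 in brain and 1137 and 932 in dura mater, or 0.334 ± 0.277 against 1034 ± 145 (mean ± SD, n = 2 per tissue). Both dura mater libraries were high and both brain libraries near the level of single counts. The log2 fold change was 11.11 with a standard error (SE) of 0.78, the rank 6 by size among the 9347 genes (edgeR, adjusted p = 0.0232), and both dura mater libraries exceeded both brain libraries. Fabp4 is a candidate that the study itself took from these libraries, so its direction here is not independent evidence. It passed the threshold under 13 of 14 other settings, and limma-voom gave an adjusted p of 0.0643 with a log2 fold change of 11.67. Here and below, 1 of the other settings, a prior count of 0.5, changed only the log2 value and left the p-value as it was. Fewer cells carrying a transcript and less of it per cell cannot be told apart in these bulk libraries, for Fabp4 or any gene below.

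Fabp5 (chr3:10012548-10016607, plus strand), the close relative also present in many epithelia and in brain endothelium, had 404 and 36 counts in brain and 106 and 504 in dura mater. The CPM values were 27.9 and 2.72 in brain and 7.90 and 30.9 in dura mater. The libraries interleaved, and the spread within each tissue was wider than the difference between their means of 15.3 ± 17.8 and 19.4 ± 16.2 CPM (mean ± SD, n = 2). The log2 fold change was 0.34 with an SE of 2.51 (edgeR, adjusted p = 1.00). It turned to -0.61 without brain 2 and to -0.96 without dura 2, and rose to 2.70 without brain 1, so that no direction can be given. Among the 10 genes, Fabp5 was the 1 gene with transcripts of other loci that match it at 95% identity or more over at least 100 bases. These were 3 processed pseudogenes, Gm6166, Gm14328 and Gm13998, none with an entry in the count tables, and how reads shared with them were counted is not given in the sources used here.

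The 3 genes with the pattern most like that of Fabp4, by Euclidean distance of log2 CPM over the 4 libraries, were Aqp1, Plvap and Aebp1. Aqp1, a water channel, lay at a distance of 0.68, with 2 and 4 counts in brain and 13340 and 18143 in dura mater. Plvap, a component of the diaphragms of fenestrated capillaries, lay at 1.12, with 0 and 8 counts in brain and 12469 and 20241 in dura mater. Aebp1, which encodes a carboxypeptidase-like protein of the extracellular matrix, lay at 2.22 with 1 and 3 counts against 7013 and 4830. As for Fabp4, each had single-digit counts in brain and high counts in dura mater, a likeness that follows from how they were picked.

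Cd36 (chr5:17781690-17888801, minus strand) encodes the scavenger receptor that acts as a fatty acid translocase. It had 1 and 3 counts in brain and 453 and 665 in dura mater, equal to 0.0690 and 0.227 CPM against 33.8 and 40.7 CPM. Both dura mater libraries were high and close together, and the brain libraries held 4 counts in all. The ratio of the scaled sums, dura mater over brain, was 261, with a 95% interval of 101 to 958 that covers counting error alone. The log2 fold change was 7.03 with an SE of 2.78 and did not pass the threshold in edgeR (adjusted p = 0.466, unadjusted p = 0.0428). DESeq2, in which 12.0% of the genes given an adjusted p were called, gave an adjusted p of 0.000768. It was the 1 of 14 other settings in which Cd36 passed. Limma-voom gave an adjusted p of 0.153 and the newer edgeR dispersion estimate 0.387.

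LPL and its partners showed contrasting values. Gpihbp1 (chr15:75596628-75599481, plus strand), the anchor that carries LPL to the capillary lumen, had no count in either brain library, while dura 1 held 2088 and dura 2 held 1950. This made 156 and 119 CPM in dura mater, or 138 ± 25.6 CPM (mean ± SD, n = 2). The dura mater level was at least 634-fold higher, taking 3 counts per brain library as the floor for counting error alone. This floor leaves out the wider spread between libraries described above. The fitted log2 fold change of 9.95 (SE 1.37) had an adjusted p of 0.0683 in edgeR, just outside the threshold. Gpihbp1 passed it under 6 of 14 other settings. These were DESeq2 (adjusted p = 1.88e-10), the newer edgeR dispersion estimate (0.0100), no filter on low counts, the replicate number as a block (0.00325), and the fits without brain 1 (6.04e-09) or without brain 2 (2.11e-09). Over all these settings the highest adjusted p was 0.446, without dura 1.

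Lpl itself (chr8:68880491-68907448, plus strand), the lipase that is made mainly by fat and muscle cells and handed to endothelium, had 10 and 25 counts in brain and 1534 and 2314 in dura mater. In CPM these were 0.690 and 1.89 in brain and 114 and 142 in dura mater, or 1.29 ± 0.848 against 128 ± 19.3 (mean ± SD, n = 2). The ratio of the scaled sums was 103, with an interval of 73.6 to 147 from counting error alone. The groups did not overlap, and the log2 fold change was 6.49 with an SE of 1.37 (edgeR, adjusted p = 0.164). It passed under 6 of 15 other settings. DESeq2 called it (adjusted p = 2.87e-07), as did edgeR with the newer dispersion estimate (0.0246), with no filter (0.0137), with 10 counts required in every library (0.00708), without brain 1 (0.00104) and without brain 2 (5.43e-05). The other 9 settings did not, among them the replicate number as a block (0.0968), limma-voom (0.229), and the fits without dura 1 (0.771) or without dura 2 (0.683).

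Angptl4 (chr17:33773750-33781830, minus strand), the secreted inhibitor of LPL, went the other way, with 3721 and 1372 counts in brain and 587 and 243 in dura mater. In CPM these were 257 and 104 in brain and 43.8 and 14.9 in dura mater, or 180 ± 108 against 29.3 ± 20.4 (mean ± SD, n = 2). The lower brain library still exceeded the higher dura mater library. The log2 fold change was -2.61 with an SE of 0.95 (edgeR, adjusted p = 0.466, unadjusted p = 0.0315). It passed the threshold in 1 of 15 other settings, without brain 2, at a log2 fold change of -3.17 and an adjusted p of 0.00308. It was -1.85 without brain 1, -2.06 without dura 2 and -3.72 without dura 1, not past the threshold in any of these. Lipg (chr18:74939322-74961263, minus strand), endothelial lipase, had 0 counts in all 4 libraries and was not tested. By counting error alone a count of 0 allows up to 3 counts, and at this depth a level under that was not detectable.

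Of the regulators, Pparg (chr6:115360951-115490399, plus strand) encodes the lipid-activated nuclear receptor PPARγ. It had 1 and 0 counts in brain and 355 and 549 in dura mater, that is 0.0690 and 0 CPM against 26.5 and 33.6 CPM. Both dura mater libraries were high, and the brain libraries together held 1 count. The ratio of the scaled sums was 843, with a wide interval of 151 to 33326 from counting error alone. The log2 fold change was 7.44 with an SE of 2.92 and did not pass the threshold in edgeR (adjusted p = 0.466, unadjusted p = 0.0421), while DESeq2 gave an adjusted p of 0.00291.

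Meox2 (chr12:37108540-37179534, plus strand) and Tcf15 encode transcription factors that pair with each other and are known to drive fatty acid uptake genes in heart endothelium. Meox2 had no count in either brain library, 2 in dura 1 and 268 in dura 2, or 0.149 and 16.4 CPM. Its level in dura 1 was within the floor of 3 counts, so its presence rests on dura 2 alone, and it was left untested by the filter on low counts. The 1577 genes tested that were near 0 in dura 1 and well counted in dura 2 had the same pattern. Tcf15 (chr2:152143561-152149097, plus strand) had 348 and 365 counts in brain and 1036 and 846 in dura mater. The CPM values were 24.0 and 27.6 in brain and 77.3 and 51.8 in dura mater, or 25.8 ± 2.53 against 64.5 ± 18.0 (mean ± SD, n = 2). The groups did not overlap, but the log2 fold change of 1.32 had an SE of 1.40 (edgeR, adjusted p = 0.986). It lay between 0.86 and 1.56 over 15 other settings and passed the threshold in none of them.

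**Figure D2:**
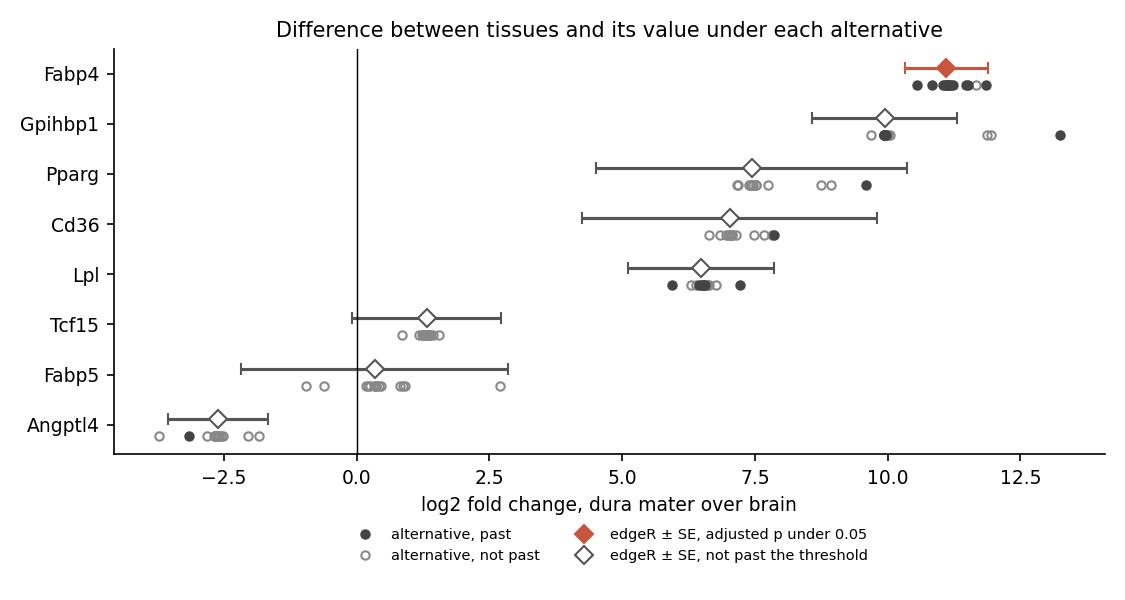
Log2 fold change (dura mater over brain) of the 8 genes tested, with diamonds and bars for the edgeR value ± SE (filled red where the adjusted p is under 0.05) and small circles beneath for the other settings (filled dark where the adjusted p is under 0.05). Fabp4, at 11.11, is the 1 filled diamond, and Fabp5 is the 1 gene with settings on both sides of 0.

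The genes also differed in how well the libraries of a tissue matched. In dura mater the higher library was 1.22 times the lower for Fabp4, 1.21 times for Cd36, 1.30 times for Gpihbp1, 1.24 times for Lpl and 1.27 times for Pparg. These 5 were steadier between the dura mater libraries than many genes. With single-digit counts or none in brain, Fabp4, Cd36, Gpihbp1 and Pparg could be kept for testing only through both dura mater libraries. Part of their agreement was thus built in, while other genes could be kept through brain libraries. Of the 7570 genes tested with a dura mater mean of at least 10 CPM, 35.9% were within 1.5-fold and the median ratio was 1.87. Tcf15 was also within that limit, at 1.49, while Angptl4 (2.94), Fabp5 (3.91) and Meox2 (110) were outside it. The same 5 genes had every dura mater library at least 16 times above every brain library, a limit set after the values were seen, as did 10.2% of all genes tested. DESeq2 also called these 5 and no other of the 9 that it fitted, and it called 12.0% of the 10483 genes given an adjusted p.

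Regulatory sequence was looked up because Pparg, Cd36 and Fabp4 were high in the same libraries and PPARγ is known to bind the half-site AGGTCA as a direct repeat with its partner RXR. Windows from 250 bases before to 50 after a start site, from RefSeq (GRCm38.p6), matched 3 of the 10 genes, Cd36, Pparg and Meox2. The half-site was searched on both strands (TGACCT on the other), and 16.3% of all 32851 windows held it. The direct repeat AGGTCANAGGTCA, which contains the half-site, was in 0.0396% of windows and in none of these genes. The Cd36 window had 1 half-site, starting 228 bases before the start site and on the opposite strand. No GENCODE transcript starts at this site, which lies 52905 bases downstream of the GENCODE start of Cd36. Pparg had 1 in each of 2 windows, 28 and 9 bases before the start site, and none in the window of its furthest downstream start, and Meox2 had none. At the first of the 2 Pparg starts with a half-site no GENCODE transcript starts either. Of the 250 bases before these 2 starts, 193 and 57 are annotated as Pparg exon. A match describes letters only, and the absence of a match says nothing about PPARγ. The 250 bases before the start are printed for Cd36 (chr5:17835897-17836146, minus strand) and for the furthest downstream start of Pparg (chr6:115421816-115422065, plus strand), to show a window with a half-site, in capitals, beside one without.
Cd36: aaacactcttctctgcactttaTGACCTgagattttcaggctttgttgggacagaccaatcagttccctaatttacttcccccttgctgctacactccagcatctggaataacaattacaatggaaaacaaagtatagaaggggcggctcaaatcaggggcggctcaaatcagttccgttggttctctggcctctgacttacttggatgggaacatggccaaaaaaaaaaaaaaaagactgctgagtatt
Pparg: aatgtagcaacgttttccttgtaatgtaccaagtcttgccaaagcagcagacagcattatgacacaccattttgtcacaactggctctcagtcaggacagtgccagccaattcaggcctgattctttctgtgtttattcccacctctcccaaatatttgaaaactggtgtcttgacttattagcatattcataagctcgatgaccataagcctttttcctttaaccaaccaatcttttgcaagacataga

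Other genes of fatty acid handling were split between the tissues. Of 58 listed, 57 were in the tables, 11 had no counts, 11 had too few to test and 35 were tested. Mfsd2a was lower in dura mater and the 1 gene past the threshold in edgeR, or 1 of 35 against 0.610% of all genes. At an unadjusted p under 0.05 in edgeR, 4 were higher and 3 lower, against 7.04% and 2.97% of all genes tested. In 8 of the 35 genes both dura mater libraries were above both brain libraries, against 26.2% of all genes, and in 11 they were below, against 16.9%. The median log2 fold change was -0.19, and 15 genes lay above 0 and 20 below.

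Mfsd2a, the carrier of lysophosphatidylcholine with long-chain fatty acids across the blood-brain barrier, had 22073 and 17712 counts in brain and 955 and 490 in dura mater. This was 1431 ± 130 against 50.6 ± 29.1 CPM (mean ± SD, n = 2), both brain libraries lying above both dura mater libraries. The log2 fold change was -4.82 with an SE of 0.55 (edgeR, adjusted p = 0.0248), and it passed under each of 15 other settings.

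Nrp1 and Flt1 encode receptors of VEGF-B, a factor tied to endothelial fatty acid transport, and they lay on different sides. Nrp1 had 3576 and 4107 counts in brain and 17261 and 26517 in dura mater, a log2 fold change of 2.38 with an SE of 0.35 (edgeR, adjusted p = 0.0544), and it passed the threshold under 10 of 15 other settings. Flt1, chosen after its values were seen, had 13777 and 14248 counts in brain and 9880 and 12363 in dura mater (log2 fold change -0.44, SE 0.31). Among the other genes higher in both dura mater libraries, Aplnr, the receptor of apelin, had no count in brain and 317 and 341 in dura mater. With 3 counts per brain library as the floor for counting error alone, Aplnr was at least 103-fold higher. Its log2 fold change of 7.33 had an SE of 2.74 and an adjusted p of 0.466 in edgeR. DESeq2 was the 1 of 14 other settings in which Aplnr passed the threshold. Mgll, the monoglyceride lipase, had 2346 and 2616 counts in brain and 10133 and 11208 in dura mater, with a log2 difference of 2.00 (SE 0.38) and an adjusted p of 0.12 in edgeR. Cav1, the coat protein of caveolae, had 2148 and 2666 counts in brain and 7209 and 8711 in dura mater, with a log2 difference of 1.61 (SE 0.41) and an adjusted p of 0.259 in edgeR. Both were close between replicates of each tissue. The acyl-CoA synthetases Acsl4 and Acsl5, the mitochondrial dehydrogenase Acadvl and the PPARγ partner type Rxrb had log2 fold changes of 1.58 to 2.76 without passing the threshold. For Acadvl and Rxrb, brain 1 held a single count and brain 2 held 277 and 189, and without brain 2 their log2 fold changes became 8.44 and 7.22, Acadvl then passing the threshold (edgeR, adjusted p = 0.00773), while without brain 1 they were 1.73 and 1.07. Acsl4, with 374 and 46 counts in brain, ran from 1.58 without dura 1 to 4.5 without brain 1. Exons of Dvl2 on the other strand cover 42.9% of the exon length of Acadvl, those of Zdhhc6 8.31% of Acsl5, and Gm26588 3.29% of Mgll, and reads from the 2 strands cannot be told apart without the strand setting.

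Of the genes higher in both brain libraries, Lrp8, a receptor for apolipoprotein E and reelin, had 5285 and 3345 counts in brain and 1 and 164 in dura mater (edgeR log2 fold change -5.89, SE 1.82, adjusted p = 0.389). Lrp8 passed the threshold under 8 of 14 other settings, each library left out among them, and became -10.46 without dura 2. Ppard, the PPAR of many tissues, had 1406 and 814 in brain and 30 and 137 in dura mater, a log2 fold change of -3.86 with an SE of 1.72 (edgeR, adjusted p = 0.476). Ppard and Pparg were thus on opposite sides, while Ppara had 0 counts in all 4 libraries. Pnpla2, the triglyceride lipase of lipid droplets, had 13828 and 13057 counts in brain and 7987 and 3974 in dura mater, a log2 fold change of -1.21 with an SE of 0.48 (edgeR, adjusted p = 0.466). This value lay between -0.72 without dura 2 and -2.14 without dura 1. Its coactivator Abhd5 had 1544 and 2875 counts in brain and 722 and 1191 in dura mater, a log2 fold change of -1.35 that became -0.82 without brain 2. The droplet coat gene Plin2 had 1468 and 866 against 138 and 992 counts, and its log2 fold change of -1.23 ran from -0.60 without dura 1 to -3.02 without dura 2. Cpt2 of fatty acid oxidation and the synthetase Acsl3 had -3.89 and -2.71, with 0 and 2 counts in dura 1 against 357 and 165 in dura 2, and became -10.14 and -6.88 without dura 2. Without dura 1 they were -3.04 and -1.89. Exons of A730085K08Rik on the other strand cover 16% of the exon length of Abhd5.

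**Figure D3:**
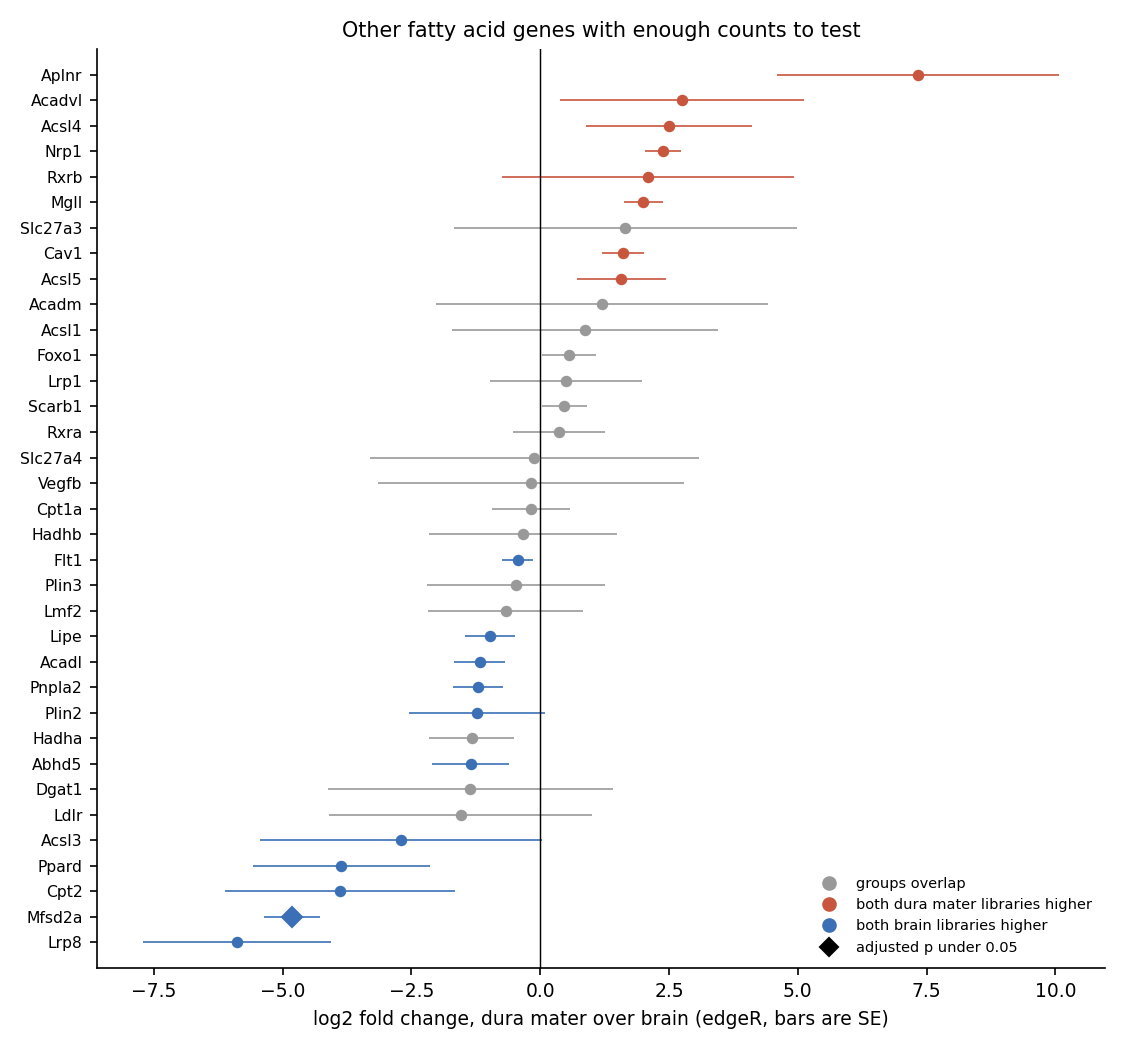
Log2 fold change (dura mater over brain) ± SE from edgeR for the 35 other fatty acid genes tested, in red where both dura mater libraries are above both brain libraries, blue where they are below and grey where they overlap. Mfsd2a, the diamond at -4.82, has an adjusted p under 0.05, and the genes spread to both sides of 0.

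Markers of other cells moved with the tissue for some lists. The lymphatic endothelial list (6 genes) summed to 0.276 and 0.529 CPM in brain and 255 and 399 CPM in dura mater, with Prox1, Lyve1, Ccl21a and Mmrn1 at 0 in both brain libraries and 4 of 6 genes higher in both dura mater libraries. The fibroblast list summed to 7.38 and 50.7 CPM in brain and 337 and 354 CPM in dura mater, with 4 of 6 genes higher there, while Lum and Pdgfra had at most 4 counts in any library. The pericyte list summed to 41.4 and 94.5 CPM against 117 and 254 CPM, with 2 of 6 genes higher in both dura mater libraries. The astrocyte list summed to 51.7 and 8.32 CPM against 373 and 155 CPM, most of it Gja1 (51.3 and 7.79 against 272 and 151 CPM). In this list 2 of 6 genes were higher in both dura mater libraries, Gja1 and Slc1a3 (915 and 74 counts there). Aqp4 was at 0 throughout, Aldh1l1 was at 0 in dura mater, and Gfap had 189 and 0 counts there. Over all genes tested, 26.2% were higher in both dura mater libraries, a share near the 2 of 6 of the pericyte and astrocyte lists. The sums of these lists were higher in the libraries where Fabp4, Cd36, Gpihbp1, Lpl and Pparg were high. Their part in those values was not tested.

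Cell types known for several of these genes gave other values. The adipocyte list summed to 65.5 and 101 CPM in brain and 2.01 and 12.3 CPM in dura mater, nearly all of it Plin4. In the dura mater libraries Plin1 had 0 counts in both and Adipoq had 2 and 0. The part of fat cells in the levels of Fabp4, Lpl, Cd36 and Pparg was not tested. The macrophage list summed to 51.3 and 50.6 CPM in brain and 44.7 and 40.0 CPM in dura mater. These near sums came from unlike genes: C1qa and C1qb (436 and 289 counts) in brain 1, Csf1r (646) in brain 2, Cd68 in dura mater (550 and 441, against 4 and 3 in brain), and also Mrc1 (172) in dura 2. Ptprc and Adgre1 had at most 5 counts in any library and Lyz2 at most 9. The platelet list, looked at because platelets carry CD36, summed to 46.9 and 0.378 CPM against 36.5 and 16.3 CPM. Itga2b made up much of it in brain 1 and dura 1 (395 and 487 counts, 0 in the other libraries) and Ppbp in brain 1 and dura 2 (275 and 190), while Gp9, Gp1ba and Treml1 were at 0 throughout. The part of macrophages and platelets in the levels of Cd36 and Fabp4 was not tested. The skeletal muscle list, looked at for Lpl, summed to 0.759 and 8.69 CPM against 1.04 and 13.0 CPM, with Ckm at no more than 1 count in any library.

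The neuron list summed to 142 and 169 CPM in brain and 162 and 157 CPM in dura mater, most of it Stmn2, and the oligodendrocyte list to 102 and 0.302 CPM against 125 and 24.6 CPM with Mag at 0. The brain endothelial barrier list of 7 genes, to which Mfsd2a belongs, summed to 25537 and 23395 CPM in brain and 3076 and 3004 CPM in dura mater. All 7 were higher in both brain libraries, against 16.9% of all genes tested.

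**Figure D4:**
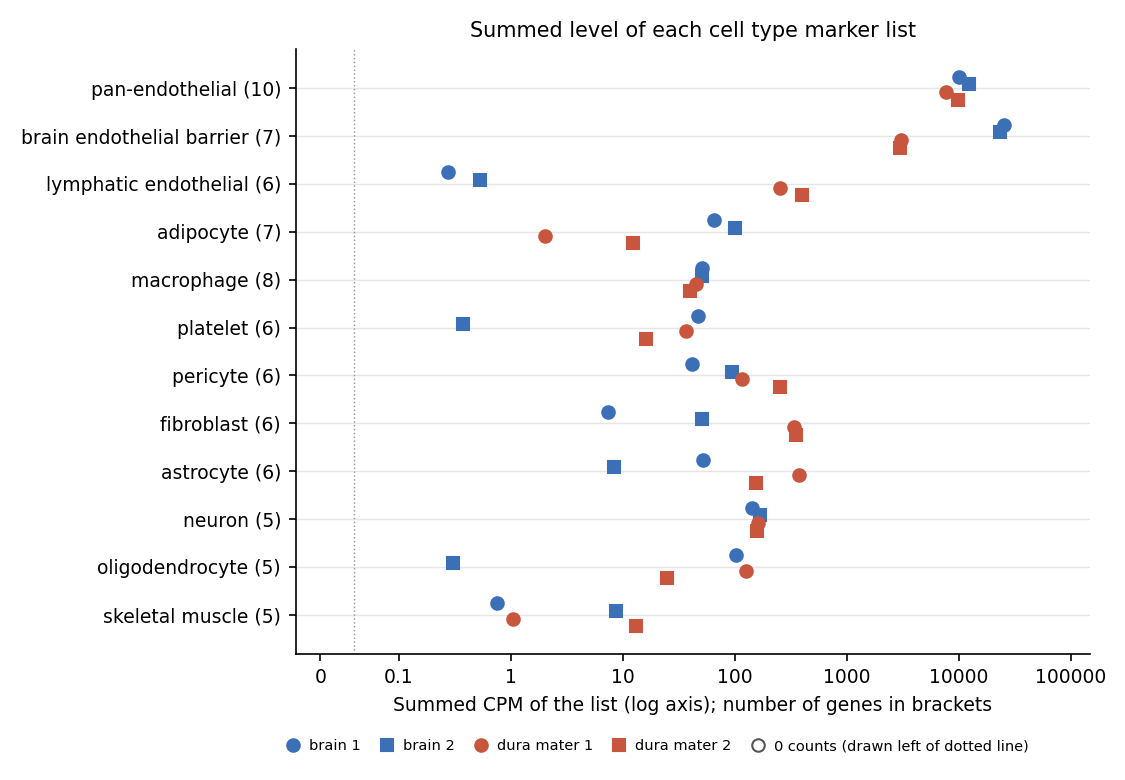
Summed CPM of each cell type marker list in each library on a log axis, with the number of genes in brackets, brain in blue, dura mater in red, replicate 1 as circles and replicate 2 as squares. The lymphatic endothelial, fibroblast, pericyte and astrocyte sums are higher in both dura mater libraries. The brain barrier, adipocyte and, by less, pan-endothelial sums are higher in both brain libraries. The sums of the macrophage and neuron lists lie close together in all 4, those of the macrophage list through different genes in different libraries.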

How the data were processed

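RNA of sorted endothelial cells was sequenced in 2 brain and 2 dura mater libraries made with a Lexogen kit. Per the labels and methods, Trizol RNA was used, and the methods name TopHat and cufflinks, while the submitters' processing notes name Bowtie2, edgeR and mm10. The counting tool, the annotation and the use of strand are not given in the sources used here. The authors deposited 1 table per library of whole-number counts per gene symbol, neither scaled nor filtered, and 35 symbols stand on more than 1 line.

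Counts were tested with edgeR 4.0.16 in R 4.3.3 (quasi-likelihood test, TMM scaling, filterByExpr by tissue, tissue as the only term, Benjamini-Hochberg adjustment over 9347 genes, adjusted p under 0.05). The cufflinks test needs alignments, which were not used here. Log2 fold changes used a prior count of 2, and the SE is the absolute log2 value over the square root of F. Counting intervals are exact conditional binomial intervals and, like the floor of 3 counts, cover counting error only. Gene positions and overlaps are from GENCODE M21 (GRCm38, the assembly also called mm10).

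Alternatives were DESeq2 1.42.0, limma-voom (limma 3.58.1), the newer edgeR dispersion estimate, other scalings and filters, a replicate block, a whole fit without each library's 10 most counted genes, each library left out, and a prior count of 0.5. The prior count changes the log2 value and not the p-value, so that setting is no separate test of the threshold. Scripts were tested on simulated data. The genes, the list of other fatty acid genes, the 12 marker lists and the tests were chosen with earlier results of these data known. Named besides the 10 genes were those of the other list past the threshold, up to 8 per direction with the largest log2 fold change, no overlap between tissues and 10 CPM or more on average in the higher tissue, and for Fabp4 the 3 nearest genes. Ppara, Flt1 and the genes of the marker lists were named outside this rule after their values were seen, and the search for half-sites and near copies was also set up then.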

Additional observations from a re-analysis of the deposited data

How the results depend on the processing

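The direction of every one of the 8 genes tested held under every alternative that gave it a value, except Fabp5 (-0.61 without brain 2, -0.96 without dura 2, up to 2.70 without brain 1). Fabp5 was also the 1 gene tested whose tissues overlapped. For the others, leaving a library out or changing the scaling could hardly reverse the direction, so that it held is no separate evidence. How many genes passed depended on the setting. Of the 10 genes, 1 passed in edgeR, 5 in DESeq2 and 0 in limma-voom, in which 80 of all genes passed. With the newer dispersion estimate 3 passed, as did 3 with no filter. With 10 counts required in every library 1 passed, which was Lpl and not Fabp4, since only 4 of the genes could then be tested. Over all genes, 57 passed in edgeR, 1257 in DESeq2, 305 with the newer dispersion estimate, 326 with no filter, 141 with 10 counts in every library, and 80 to 740 with a library left out (740 without brain 1, 701 without brain 2, 80 without dura 1, 97 without dura 2). Of the other fatty acid genes, 1 passed in edgeR, 7 in DESeq2, 2 in limma-voom, 5 with the newer dispersion estimate, 2 with upper quartile scaling, 5 with no filter, 3 with 10 counts in every library, and 3 to 6 with a library left out. The cause of these differences was not tested. A fit with 1 library left out assumes that the lone library varies like the other tissue. Of the genes that passed, 70.2% were higher in dura mater, against 50% in limma-voom and 44.3% without dura 2 (43 higher, 54 lower). Upper quartile scaling moved the median log2 fold change of all genes from -0.01 to 0.13. This median was 0.22 in DESeq2, 0.28 in limma-voom and 0.27 with no filter. It was 1.03 without brain 1, 0.95 without brain 2, 0.14 without dura 1 and -0.19 without dura 2. Apart from upper quartile scaling and limma-voom, these fits covered more genes than the main one. Genes with few counts in a library, such as Meox2, are limited by that count.

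With the replicate number of the titles as a block, 224 of all genes, 2 of the 10 (Fabp4 and Gpihbp1) and 4 of the other fatty acid genes passed. The numbers were not shown to pair the libraries, since same-numbered libraries deviated with a correlation of -0.0208 over genes. The block reversed no direction.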
